A study of Rattus norvegicus with 23 samples.

Results

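The proteins of the cytosolic ribosome were followed at the level of their messages in the dorsal hippocampus of young and aged rats. Members were the probe sets that the array's probe-gene table pairs with 1 gene symbol, where that symbol starts with Rpl or Rps and a digit, or is Rplp0, Rplp1, Rplp2 or Rpsa, and does not start with Rps6k. The rule uses names only. It found 74 genes with 262 probe sets, out of 14503 genes with 15307 probe sets that carry 1 symbol. All 262 probe sets reached a signal of 40 on at least 4 arrays and were tested. For each gene, the probe set of highest mean signal stood for the gene, and all probe sets were read as well. Of the 74 genes, 45 encode proteins of the large subunit and 27 of the small subunit. The other two are a pseudogene, Rpl17-ps16, and Rps19bp1, which matches by name but encodes a protein that binds RPS19 and regulates the deacetylase SIRT1 but is no part of the ribosome.

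The arrays (Affymetrix Rat Gene 1.0 ST, 1 per animal) came from 23 male F344 rats, a common inbred strain for work on aging. The 6 young controls (YC) were 5 to 6 months old. By the methods they received no injection, although their labels call them sham. All aged rats were 21 months old and had been injected in both hippocampi with an adeno-associated virus (AAV) whose transgene was driven by the CaMKII promoter, which is active in excitatory forebrain neurons. The 5 aged controls (AC) carried enhanced green fluorescent protein (AAV-eGFP), and the short-term (ST, 6 rats) and long-term (LT, 6 rats) groups carried AAV-FKBP1b, which encodes a protein that restrains calcium release through ryanodine receptors. The series' design text gives injection at 13 months for AC and LT and at 19 months for ST, whereas the labels give 18 months for AC and ST and 12 months for LT. AC thus differed from YC in age, surgery and vector together, and the eGFP virus was given at a higher titer than the FKBP1b virus, so transgene and titer cannot be told apart. The rats profiled in ST and LT were taken by the study from those with high Fkbp1b messages, so these groups do not stand for all injected rats.

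Each ribosome joins a large and a small subunit, and cells need their proteins in matched amounts, so ribosomal protein genes are known for moving together. Most of their messages begin with a 5′ terminal oligopyrimidine (TOP) tract, a C at the first base followed by a run of C and T, through which the mTOR pathway controls their translation. In neurons, ribosomes work in the cell body and also in dendrites, where local protein synthesis contributes to lasting changes of synapses.

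The annotated starts of 62 members were read from RefSeq's promoter table for the rat build GRCr8, 61 by gene ID and Rps9 by symbol. A TOP start was taken as a C at the annotated first base with C or T in the next 4 bases. It was found at 23 of the 62 member starts (37.1%) and at 2.63% of all 33469 starts in the table. With a tolerance of 5 bases on either side, it was found at 38 of the 62 (61.3%) and at 17.0% of all. The starts printed here are those of members whose values the results turn on, and they are of 3 kinds. Every line gives 10 bases before and 20 bases from the annotated start, 5′ to 3′ on the gene's own strand. Capitals run from the matching C nearest the start to the end of its run of C and T. Any C or T directly before that C stays in small letters.
Rplp0 (chr12:46718371-46718400, minus strand): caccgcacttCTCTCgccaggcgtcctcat
Rpl22 (chr5:168117951-168117980, plus strand): gcgcccccctCCCTTTCTgcctcctctgcc
Rpl35 (chr3:43165902-43165931, minus strand): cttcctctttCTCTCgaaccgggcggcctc
Rps27 (chr2:177964587-177964616, minus strand): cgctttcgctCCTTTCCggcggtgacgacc
Rpl10 (chrX:157205840-157205869, plus strand): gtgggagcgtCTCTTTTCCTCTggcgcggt
Rpl31 (chr9:49143101-49143130, plus strand): atccctcgcgCCTTTCCTTTCCaacttggg
Rps28 (chr7:15311314-15311343, minus strand): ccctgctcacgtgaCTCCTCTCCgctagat
Rps24 (chr16:96507-96536, plus strand): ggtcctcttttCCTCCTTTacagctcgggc
Rps9 (chr1:74430418-74430447, minus strand): cggccacgtttCTCTTTgtcacgggcctga
Rpl41 (chr7:1563478-1563507, minus strand): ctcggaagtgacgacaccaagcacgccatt
Rpl38 (chr10:100200425-100200454, plus strand): ttctttttccgttgttcggtgctcgctcct
Rps6 (chr5:106420521-106420550, minus strand): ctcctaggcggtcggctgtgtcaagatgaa
Rpl22l1 (chr2:113683186-113683215, plus strand): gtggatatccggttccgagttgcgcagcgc
Rpl36al1 (chr6:93392239-93392268, minus strand): cttccgctccatccgtccctttcctgttcg
Rplp0, Rpl22, Rpl35 and Rps27 have the match at the annotated base, as do Rpl10 and Rpl31, which were called in no comparison. Rps28, Rps24 and Rps9 have it within 5 bases, and Rpl41, Rpl38, Rps6, Rpl22l1 and Rpl36al1 have no match in that window. In windows of 250 bases before to 50 after the start, read on both strands, CCGGAAG stood in 29.0% of the member promoters and in 8.75% of all, GGGCGG in 59.7% and 33.1%, AAGATGG in 12.9% and 7.01%, and TATAAA in 11.3% and 14.2%. CCGGAAG and AAGATGG can overlap in the letters AAG. These are matches of letters in a window and not sites shown to be used.

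Signals were the authors' robust multiarray averages (RMA), unlogged, and differences were tested on log2 signal with limma over all 13339 probe sets with 1 symbol that passed the signal minimum. An adjusted p is limma's, after Benjamini-Hochberg adjustment over these probe sets, and "called" means an adjusted p under 0.05. The errors measure the spread between animals, and the number of arrays limits their precision. Between the most similar arrays the correlation was 0.997, and 5.77% of their values were equal, so no pair was taken for 1 library. RNA integrity numbers ran from 8.9 to 9.8. General neuronal markers were present, with a lowest signal of 6330 for Camk2a and of 1571 for Rbfox3 on any array. Other genes of the same list varied more between arrays. Wfs1 had a lowest signal of 580 (mean 2594) and Prox1 of 333 (mean 786), and the cause was not tested. The methods state that this array has no probe set for Fkbp1b, so the transgene was not checked here. AC replicates 3 and 4 and LT replicates 2 and 5 stood apart by choroid plexus genes such as Ttr, and AC replicate 5 stood apart by microglial genes. AC replicate 5 also had the lowest mean level of oligodendrocyte genes (-0.52) and of neuronal genes (-0.18) of all arrays. Its RNA integrity number was 8.9, as was that of LT replicate 3. In bulk tissue, fewer cells of a type and less RNA per cell cannot be told apart.

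Ribosomal protein signals were higher in aged than in young hippocampus by a small amount, and no member was called between the 3 aged groups. The mean over the 74 members of log2 signal, each centred on its own mean over the 23 arrays, was -0.051 ± 0.038 (SD, n = 6) in YC. It was 0.013 ± 0.026 in AC (n = 5), 0.020 ± 0.020 in ST (n = 6) and 0.020 ± 0.022 in LT (n = 6). Single YC arrays lay between -0.12 (replicate 2) and -0.0066 (replicate 6). AC arrays lay between -0.014 and 0.053, ST arrays between -0.0028 and 0.046, and LT arrays between -0.017 and 0.049, so that the highest YC array lay within the range of AC and LT and just below that of ST. Counted by gene, between 4 and 30 of the 74 members stood above their own mean on a YC array, against 33 to 65 on an AC array, 37 to 63 on an ST array and 29 to 61 on an LT array.

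**Figure D1:**
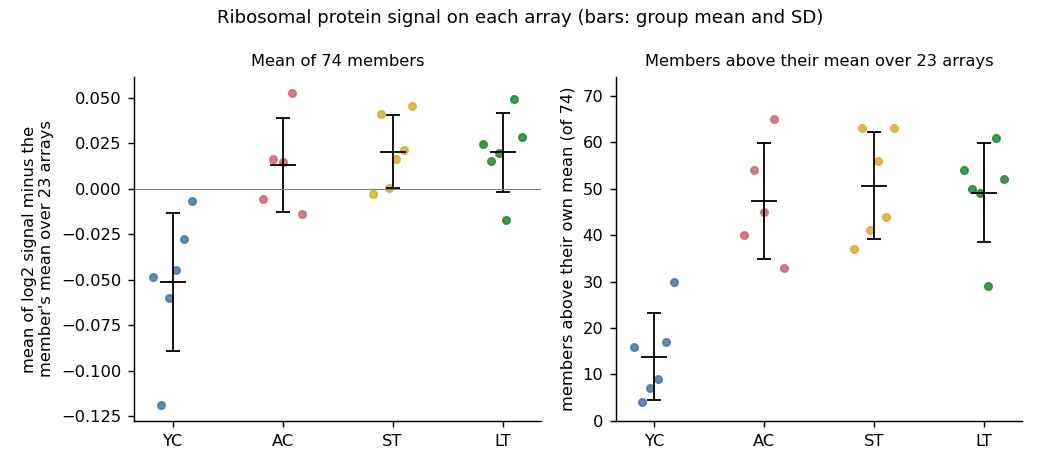
Left, mean log2 signal of the 74 members on each array after each member was centred on its mean over 23 arrays. Right, how many of the 74 lay above that mean. Points are arrays, and bars are the group mean and SD. All 6 YC arrays lie below 0 on the left, from -0.12 to -0.0066, and the aged groups overlap each other.

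In AC against YC, 19 of the 74 members were called higher (25.7%, where 5.56% of all probe sets tested were called higher) and 2 were called lower (2.7%, against 4.18% of all). The median difference of the members was 0.076 on the log2 scale, which is 5.39%, and that of all probe sets was -0.0062. The difference was above 0 for 63 of the 74, whereas 47.5% of all probe sets lay above 0. At an unadjusted p under 0.05, 39 members were higher and 3 lower, where 13.7% of all probe sets were higher and 13.7% lower. For 16 members every AC array was above every YC array, which held for 3.21% of all probe sets, and for none was every AC array below (1.88% of all). Leaving out the pseudogene and Rps19bp1 left 19 higher and 1 lower of 72. When array medians were made equal, 7 members were called higher and 53 of the 74 differences were above 0, with a median of 0.045, so the size of the rise depends on the scaling. With 1 array left out, 9 to 26 were called higher, fewest without YC replicate 2 (9), AC replicate 4 (10), AC replicate 3 (12) or YC replicate 1 (12). For equal medians and for fits with 1 array left out, the share of all probe sets called is not given here. By analysis of variance and Fisher's least significant difference, both at an unadjusted p of 0.05 or less, a count made after the data were seen, 41 members were higher (9.74% of all) and 3 lower (8.56%). With all 262 probe sets, 71 were called higher and 4 lower, with a median of 0.064 and 230 above 0.

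**Figure D2:**
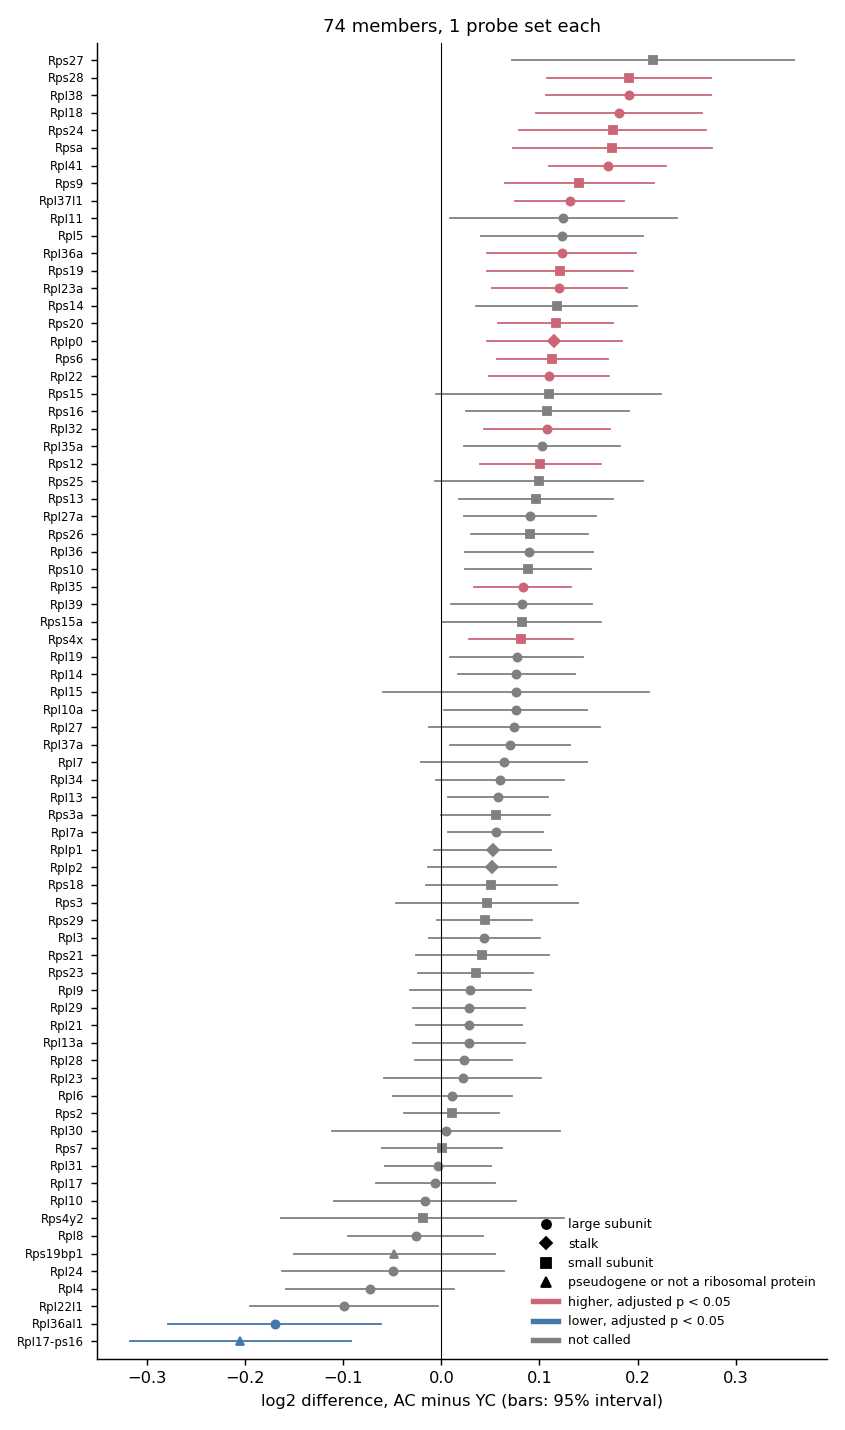
Log2 difference of AC minus YC for each of the 74 members by its probe set of highest mean signal, with the 95% interval. Circles are large subunit proteins, diamonds stalk proteins, squares small subunit proteins and triangles the pseudogene and Rps19bp1. The 19 red members were called higher and the 2 blue ones lower at an adjusted p under 0.05.

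Among the large subunit genes other than the stalk, 9 of 42 were called higher (Rpl18, Rpl22, Rpl23a, Rpl32, Rpl35, Rpl36a, Rpl37l1, Rpl38 and Rpl41) and 1 lower (Rpl36al1), and the median difference of the 42 was 0.067. Rpl41 encodes a very short basic peptide of the large subunit and had the smallest p of all members. Its signal ran from 2359 to 2548 (median 2487) in YC and was 2718, 2627, 2717, 2927 and 2863 on the AC arrays. The groups did not overlap, and the log2 difference was 0.17 ± 0.029 (SE, adjusted p = 0.0018). Rpl38, a protein known for a role in translating selected messages during development, had signals from 1749 to 2085 (median 1991.5) in YC and 2144, 2218, 2233, 2331 and 2245 in AC. Again every AC array exceeded every YC array, and the log2 difference was 0.19 ± 0.041 (SE, adjusted p = 0.0068). Rpl18 ran from 1831 to 1971 (median 1859.5) in YC and read 2096, 1979, 2246, 2098 and 2221 in AC. Its groups were separate by a narrow gap at their edges, with a log2 difference of 0.18 (adjusted p = 0.0096). Rpl37l1 is listed as a like-copy of RPL37, and whether its probe sets also detect Rpl37 was not tested. It rose from 2221 to 2481 (median 2312.5) in YC to 2534, 2627, 2526, 2548 and 2504 in AC, a log2 difference of 0.13 (adjusted p = 0.0059).

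The stalk is the flexible arm of the large subunit that recruits elongation factors, built from RPLP0 with RPLP1 and RPLP2. Rplp0 ran from 1588 to 1726 (median 1648) in YC and read 1735, 1767, 1849, 1780 and 1819 in AC. It was called higher by 0.11 on the log2 scale (adjusted p = 0.032), and kept its call in 18 of 23 fits that each left out 1 array, losing it without YC replicates 1, 2 or 5 or AC replicates 3 or 4. Such fits without an ST or LT array keep the AC and YC means. They act on a difference of AC against YC only through the variance. Rplp1 and Rplp2 each differed by 0.052, and neither passed the test (adjusted p = 0.24 and 0.30). RPL5 and RPL11 form a particle with 5S rRNA and can bind MDM2, the partner of p53, when ribosome assembly is disturbed. Rpl5 differed by 0.12 in AC against YC (adjusted p = 0.053) and Rpl11 by 0.12 (adjusted p = 0.15). On AC replicate 5 Rpl5 read 3515, within the YC range of 3404 to 3680, while the other AC arrays read 3884 to 4083. Without that array the Rpl5 difference was 0.16 (adjusted p = 0.0086). These Rpl5 values are from 1 of 3 probe sets, all of high signal, and the other two differed by -0.0045 and -0.0067 (adjusted p = 0.94 and 0.89).

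Among the small subunit genes, 9 of 27 were called higher (Rps4x, Rps6, Rps9, Rps12, Rps19, Rps20, Rps24, Rps28 and Rpsa), none lower, and the median was 0.096. All but Rps4y2 had a difference above 0. Whether the 2 subunits differed from each other was not tested. Rps28 ran from 910 to 1011 (median 976.5) in YC and read 1065, 1063, 1125, 1109 and 1185 in AC. Its groups were separate, with a log2 difference of 0.19 ± 0.04 (SE, adjusted p = 0.0067). Rps6 encodes the protein that S6 kinases phosphorylate when mTOR is active. It ran from 2330 to 2453 (median 2424) in YC and read 2517, 2715, 2514, 2677 and 2592 in AC, with no overlap and a log2 difference of 0.11 (adjusted p = 0.014). Rps20 ran from 3040 to 3237 (median 3130) in YC and read 3263, 3448, 3510, 3487 and 3269 in AC. It was higher by 0.12 (adjusted p = 0.014), also without overlap. Rpsa, which is known as the laminin receptor as well as a protein of the small subunit, read 1689, 1694, 1618, 1551 and 1552 in AC and ran from 1316 to 1618 in YC. The groups overlapped there, and the log2 difference was 0.17 (adjusted p = 0.028), a call that was lost without YC replicates 1, 4 or 5 or AC replicates 2 or 3. Rps27 had the largest difference of all members, 0.22 with a 95% interval from 0.071 to 0.36, but its arrays spread widely and it missed the threshold (adjusted p = 0.052). Rps3, which also has a known role in DNA repair, differed by 0.047 (adjusted p = 0.53). Its AC values included 1739 on replicate 5 and 2258 on replicate 3, and without AC replicate 5 its difference was 0.10 (adjusted p = 0.043). Of the 16 members in which inherited mutations are known to cause Diamond-Blackfan anemia, 5 were called higher (31.2%, against 25.7% of the 74 members and 5.56% of all probe sets) and none lower, with a median of 0.096, so that their share lay near that of the members as a whole.

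**Figure D3:**
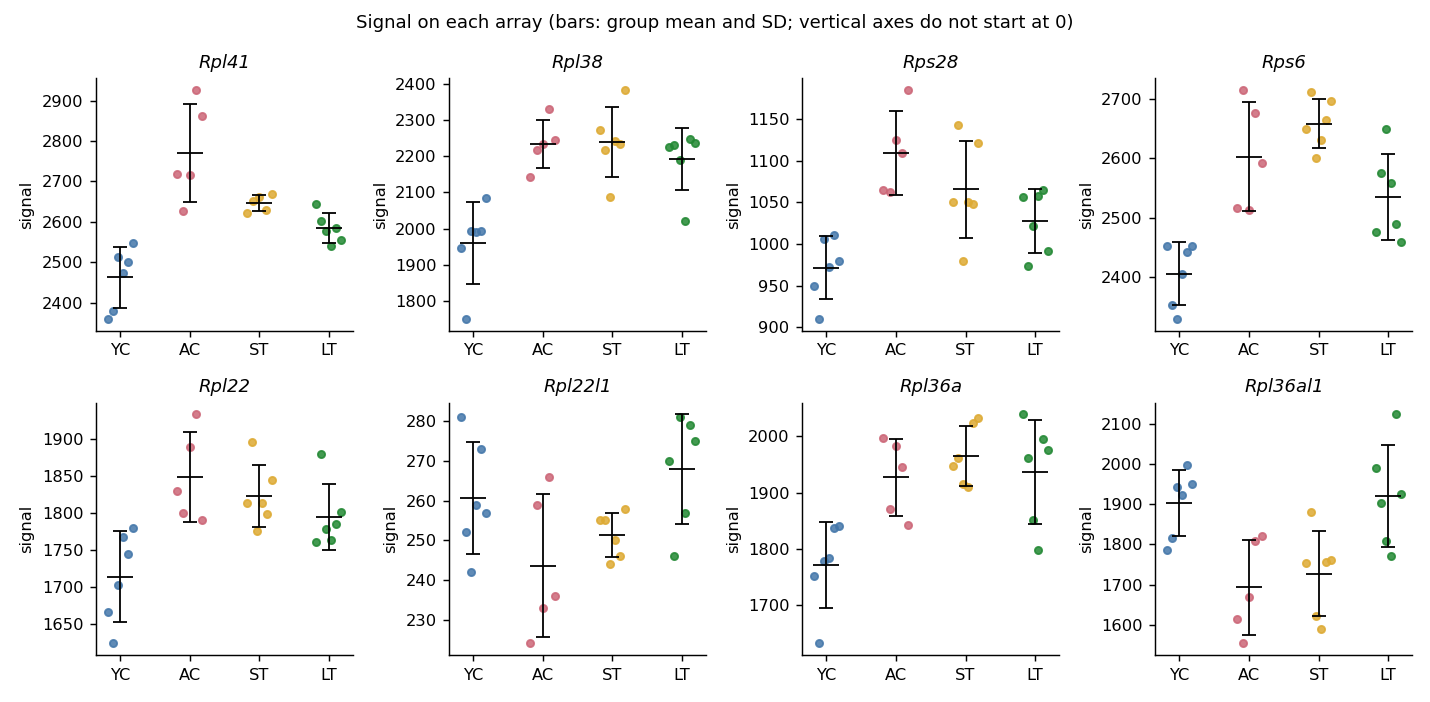
Unlogged signal of 8 members on each array, with the group mean and SD; the vertical axes do not start at 0. AC points lie above all YC points for Rpl41, Rpl38, Rps28, Rps6, Rpl22 and Rpl36a, and AC means lie below YC means for Rpl22l1 and Rpl36al1.

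Several members have a close copy under a similar name. RPL22 is an RNA-binding protein of the large subunit that is known to hold down the message of its paralog Rpl22l1. Rpl22 ran from 1623 to 1779 (median 1723.5) in YC and read 1830, 1800, 1889, 1934 and 1791 in AC, a log2 difference of 0.11 (adjusted p = 0.024) whose call was lost without YC replicate 2, AC replicate 3 or AC replicate 4. Rpl22l1 ran from 242 to 281 (median 258) in YC and read 224, 259, 233, 266 and 236 in AC, a difference of -0.099 that was not called (adjusted p = 0.17). Rpl36a was called higher by 0.12 (adjusted p = 0.039), while Rpl36al1, its copy, ran from 1787 to 1999 (median 1933) in YC, read 1615, 1553, 1669, 1809 and 1822 in AC, and was called lower, at -0.17 (adjusted p = 0.044). Rpl36a kept its call in 16 of 23 fits that each left out 1 array, and Rpl36al1 in 12. Rps4x was called higher by 0.081 (adjusted p = 0.048), with signals of 3741 to 3967 in AC against 3449 to 3774 in YC, and kept that call in 4 of those 23 fits. Rps4y2 differed by -0.019 (adjusted p = 0.89), at signals between 58 and 82. The pseudogene Rpl17-ps16 ran from 250 to 321 (median 273.5) in YC, read 233, 257, 227, 248 and 244 in AC, and was called lower, at -0.20 (adjusted p = 0.022). Rpl17 itself differed by -0.0061.

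The unequal change within each pair was tested as the log2 ratio of the members on each array, by a two-sided exact permutation test over arrays, with the 9 tests of 3 pairs and 3 comparisons adjusted together. The pairs were set by name after the values were known. The ratio of Rpl36a to Rpl36al1 was higher in AC than in YC by 0.29 (exact p = 0.0022, adjusted 0.019), and all 5 AC arrays lay above all 6 YC arrays. That p is the smallest that 462 divisions of these arrays can give. The ratio of Rpl22 to Rpl22l1 was higher by 0.21 (exact p = 0.0065, adjusted 0.029). For Rps4x and Rps4y2 it differed by 0.10 (exact p = 0.33, adjusted 0.5). In LT against AC, the first ratio was lower, at -0.18 (exact p = 0.013, adjusted 0.039), and the second was lower, at -0.18 (exact p = 0.022, adjusted 0.049). In ST against AC, they differed by -0.00067 (exact p = 0.99) and -0.068 (exact p = 0.18). Both comparisons share the AC arrays.

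Of the 74 genes, 55 have several probe sets, up to 21 for Rpl21, and in 48 of them probe sets share a transcript accession, so they are not independent measures. In 40 of the 55 every probe set lay above 0 in AC against YC, and in 10 they lay on both sides. No gene had called probe sets in both directions. At least 1 probe set was called higher in 26 of the 74 genes and lower in 4. Such a count rises with the number of probe sets per gene, and it was not made over all genes, so it has no background share. In 7 genes another probe set was called higher although the one of highest signal was not, such as Rpl36 with 8 of 10, Rpl35a with 5 of 9, Rpl10a with 3 of 4 and Rps26 with 3 of 6. All probe sets were called higher for Rpl38 (4 of 4), Rps19 (5 of 5), Rps12 (4 of 4), Rpl32 (3 of 3), Rpl36a (2 of 2) and Rps28 (2 of 2). Rpl4 and Rpl6 each had 1 probe set called lower, at -0.30 and -0.24, beside a probe set of higher signal that was not called. Probe sets of ribosomal protein genes can also detect processed pseudogenes, whose contribution was not tested. Of the 23 members with a TOP start at the annotated base, 3 were called higher, with a median of 0.076, and of the 39 others with a known start 12 were, with a median of 0.081. With the tolerance of 5 bases, 8 of 38 with a TOP start were called higher (median 0.076) and 7 of 24 without one (median 0.068), so the order of the medians depends on the tolerance. By either definition the share called higher was smaller with a TOP start than without, where 5.56% of all probe sets were called higher. These counts were not tested against each other.

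**Figure D4:**
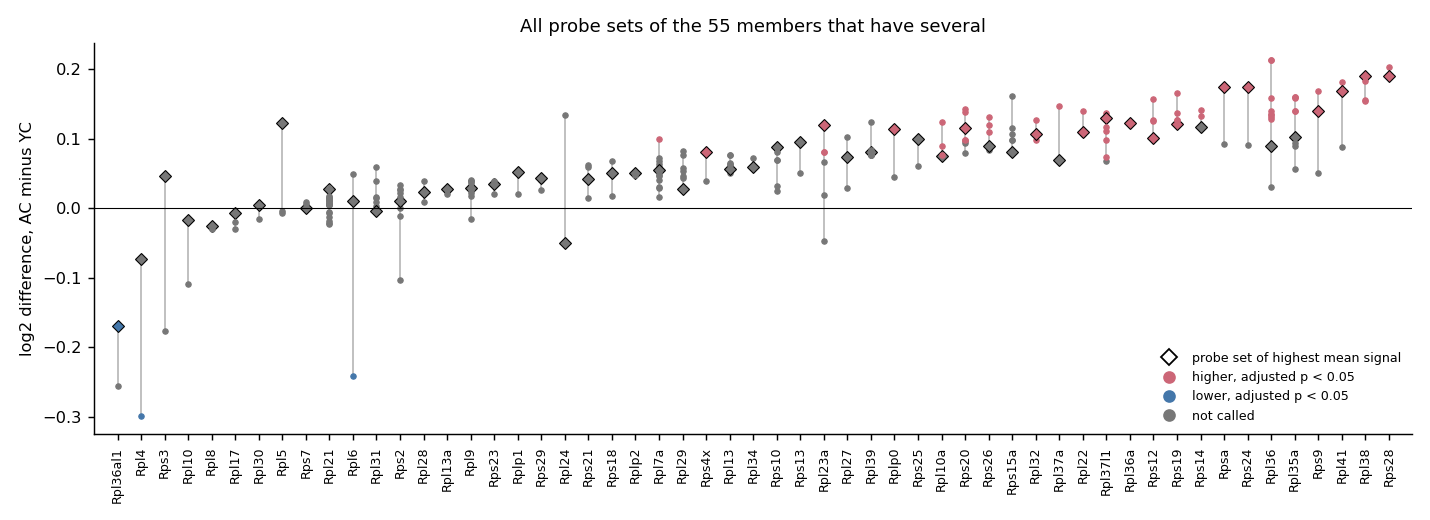
Log2 difference of AC minus YC for every probe set of the 55 members that have several, ordered by the median of the gene. Diamonds mark the probe set of highest mean signal, and red and blue mark probe sets called higher and lower. Rps28, Rpl38 and Rpl41 lie at the right end, above 0 with all their probe sets.

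Several other measures differed between the same groups as the members did. Of 22 microglial genes, 17 were called higher in AC than in YC (none lower, median 0.53), and their mean level ran from -0.40 to -0.30 on YC arrays and from -0.011 to 0.91 on AC arrays. Of 13 endothelial genes 9 were called higher, with a median of 0.33. Of 20 neuronal genes none was called, with a median of -0.054. Of 14 astrocyte genes 3 were called higher and none lower (median -0.0055), and their mean level was -0.045 ± 0.018 (SD, n = 6) in YC and 0.028 ± 0.058 (n = 5) in AC. Of 13 oligodendrocyte genes 2 were called lower and none higher (median -0.15), and of 10 T and B cell genes 2 were called higher. The oligodendrocyte mean level was -0.52 on AC replicate 5 and -0.036 to 0.094 on the other AC arrays. On YC arrays it ran from -0.017 to 0.047. The 15 choroid plexus genes had no call, but a median of 1.34. None of these markers was at 0 on any array. When the 4 arrays high in choroid plexus genes were left out, 2 members, Rpl41 and Rpl37l1, were called higher (2.7% of 74, where 2.27% of all probe sets were) and none lower, but the median was 0.059 and 62 of 74 were above 0. With the choroid plexus level in the model, 10 were called higher, with a median of 0.062. Without YC replicate 2, the lowest YC array, the median was 0.062. The part of the other cell types in the members' difference was not tested.

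Other genes of protein synthesis were read from lists for context. Of 16 translation elongation and termination factors, 3 were called higher and 1 lower in AC against YC, with a median of 0.026. Eef2k, the kinase that inhibits elongation factor 2, was higher by 0.27 (adjusted p = 0.0038), and Eef1d and Eef1g, subunits of the factor that recharges EEF1A, were higher by 0.10 and 0.11 (adjusted p = 0.027 and 0.031). Etf1, the release factor, was lower at -0.10 (adjusted p = 0.049). Of 18 messages with known TOP starts whose names lie outside the members' rule, 3 were higher, with a median of 0.038. The third of these was Rack1, a scaffold on the small subunit (0.11, adjusted p = 0.029). Fau, which encodes a ribosomal protein under another name, is among the 18 (0.060, adjusted p = 0.28). Of 68 mitochondrial ribosomal protein genes, 2 were higher and 1 lower, with a median of -0.0033. Of 81 ribosome biogenesis factors 1 was higher and 2 lower (median -0.006), of 12 RNA polymerase I genes 1 was higher and none lower (median 0.012), and of 15 regulators of TOP messages none was called at an adjusted p under 0.05 by limma, with 2 at an unadjusted p under 0.05 (median -0.03). The difference between these lists and the members was not tested.

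The rats given FKBP1b kept about the same distance from YC as AC did. In ST against YC, 15 of 74 members were called higher (20.3%, where 2.71% of all probe sets were) and none lower (1.44% of all), with a median of 0.079 and 65 above 0. For 19 members every ST array was above every YC array, which held for 3.49% of all probe sets. In LT against YC, 3 were called higher (Rpl37l1, Rpl38 and Rps20; 4.05%, where 0.81% of all probe sets were) and none lower (0.225% of all), with a median of 0.074 and 70 above 0. For 13 members every LT array was above every YC array, which held for 2.29% of all probe sets. By the same unadjusted analysis of variance and least significant difference, 42 members were higher and 2 lower in ST (8.69% and 6.24% of all), and 40 higher and 0 lower in LT (5.35% and 4.42%). Of the 15 in ST, 12 were also among the 19 in AC, which share the YC arrays, and the 3 in LT were among both. With 1 array left out, 8 (without YC replicate 2 or ST replicate 2) to 25 (without AC replicate 5) were called higher in ST, with 9 without YC replicate 3 or ST replicates 4, 5 or 6. In LT the counts ran from 0 (without YC replicates 2, 3 or 4 or LT replicate 5) to 9 (without AC replicate 5), with 1 without LT replicates 1, 2, 3 or 6. The shares of all probe sets called in the fits with 1 array left out are not given here. In all, 22 genes were called higher in at least 1 aged group. Those called in ST and not in AC were Rpl5, Rpl7 and Rps10. Rpl5 had its highest values in ST, from 3938 to 4274 (median 4132.5), all above the YC range, with a log2 difference of 0.20 ± 0.038 (SE, adjusted p = 0.0053). Its other two probe sets differed by 0.050 and 0.034 there (adjusted p = 0.35 and 0.45), so the call rests on 1 of 3. Rps6 in ST ran from 2600 to 2711 (median 2656.5), also above all YC arrays (log2 difference 0.14, adjusted p = 0.0043), and in LT from 2460 to 2650 (median 2524; 0.075, adjusted p = 0.18). Rpl38 ran from 2087 to 2384 (median 2238) in ST and from 2022 to 2248 (median 2227.5) in LT, where replicate 4 alone fell inside the YC range. Marker genes of other cells differed in these comparisons too. Of the 22 microglial genes 11 were called higher in ST and 7 in LT against YC, with medians of 0.43 and 0.36, and their mean level ran from -0.0030 to 0.43 on ST arrays and from -0.036 to 0.32 on LT arrays, above all YC arrays. Of the 13 endothelial genes 1 was higher in each (medians 0.10 and 0.14), and of the 14 astrocyte genes 3 in ST and 2 in LT (medians -0.0088 and 0.012). No neuronal, oligodendrocyte or choroid plexus gene was called, the last with medians of -0.17 in ST and 1.23 in LT. Their part in the members' differences was not tested.

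**Figure D5:**
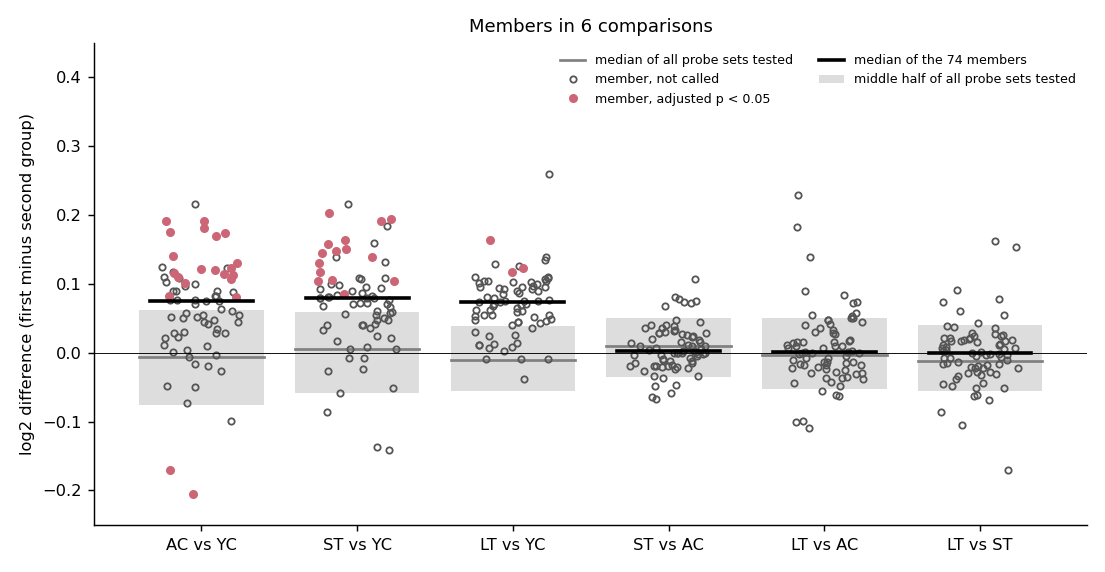
Log2 differences of the 74 members in 6 comparisons, with filled points for members called at an adjusted p under 0.05. Black lines are the members' medians, and grey boxes and lines span the 25th to 75th percentile, and the median, of all probe sets tested. Against YC the members' medians lie near 0.076, 0.079 and 0.074, and between aged groups near 0.

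Between the aged groups no member was called. In ST against AC, 0 of 74 were called by limma, and none of all probe sets was called (0%). At an unadjusted p under 0.05 there were 2 members, Rpl8 higher and Rpl41 lower, where 9.82% of all probe sets passed. In LT against AC, 0 were called, where 0.075% of all probe sets were, and 6 had an unadjusted p under 0.05, where 12.6% of all did. For ST and LT averaged and set against AC these counts were 0 and 7, with 0.03% and 10.5% of all, and for LT against ST they were 0 and 6, with 0.0075% and 12.4% of all. The arrays did not overlap for 1 member in LT against AC (higher, 0.487% of all), and for 2 in LT against ST (1 higher and 1 lower, 0.442% and 1.06% of all). Fisher's least significant difference after an analysis of variance of unlogged signal also called 0 in each of the 4 after Benjamini-Hochberg adjustment. The methods use both tests at an unadjusted p. At an unadjusted p of 0.05 or less in both, 2 members passed in ST against AC (6.09% of all probe sets did), Rpl5 higher and Rpl41 lower. In LT against AC 10 passed, 7 higher and 3 lower (9.11% of all), 6 passed for the average of both (6.98%) and 8 in LT against ST (8.19%). The members' medians were 0.0029, 0.00054, 0.0026 and -0.00085. The 95% intervals reached 0.068 to either side at the median in ST against AC and in LT against AC, and they lay wholly within 0.2 of 0 on either side for 73 and 69 of the 74 members, so larger differences are outside the intervals for those members and smaller ones were not resolved with these arrays.

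The members of smallest p in LT against AC included those that stood out in AC. Rpl17-ps16 ran from 265 to 297 (median 288) in LT, above all AC arrays, by 0.23 (95% interval from 0.12 to 0.34, adjusted p = 0.10). Rpl36al1 ran from 1771 to 2125 (median 1915) in LT and overlapped AC (0.18, interval from 0.073 to 0.29, adjusted p = 0.17). Rpl22l1 ran from 246 to 281 (median 272.5), at 0.14 above AC (adjusted p = 0.21). Rpl41 ran from 2541 to 2645 (median 2581) in LT, at -0.099 (interval from -0.16 to -0.04, adjusted p = 0.17), and from 2622 to 2670 (median 2651) on the 5 ST arrays with a value, at -0.065 (adjusted p = 0.49). Rps28 ran from 974 to 1065 (median 1039.5), at -0.11 (adjusted p = 0.26). None of these passed the threshold. The AC arrays enter both this comparison and that with YC, so that a value far out in AC gives opposite signs in the pair.

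In LT against ST, the smallest p values after those of Rpl17-ps16 (0.16, adjusted p = 0.22) and Rpl36al1 (0.15, adjusted p = 0.24) belonged to Rpl31, Rpl15 and Rpl5. Rpl31 ran from 8087 to 8329 in LT and from 7507 to 8010 in ST, without overlap, yet the log2 difference was only 0.073 (adjusted p = 0.25). Rpl15 ran from 354 to 425 in LT and from 408 to 483 in ST (-0.17, adjusted p = 0.28), and Rpl5 from 3594 to 4140 and from 3938 to 4274 (-0.10, adjusted p = 0.28). Rps19bp1, the member that is no ribosomal protein, differed by -0.048 in AC against YC (adjusted p = 0.56), -0.011 in ST against AC (adjusted p = 0.97) and 0.01 in LT against AC (adjusted p = 0.95).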

How the data were processed

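Total RNA from the dorsal hippocampus of 1 hemisphere of each of 23 rats was labelled and hybridised, 1 array per animal. The authors computed the deposited signal intensities with the robust multiarray average (RMA) at the transcript level, using Partek per the labels. The version of either is not given in the sources used here. RMA subtracts background, sets all arrays to one distribution and can compress differences. Values were deposited unlogged and rounded to whole numbers, with 758 cells blank. Of 29211 probe sets, those with 1 gene symbol in the platform annotation and a signal of 40 or more on 4 or more arrays were kept (13339). Blank cells stayed missing, 1 of them in a probe set that stands for a member (Rpl41, ST replicate 3). Log2 signals were fitted with 4 group means in limma 3.58.1 (R 4.3.3), with moderated tests of 7 comparisons and Benjamini-Hochberg adjustment over the probe sets of each. The members, gene lists, tests and alternatives were chosen with earlier results of these data known.

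The rule for naming genes took, per comparison, up to 10 members called higher and 10 lower by smallest p, the 5 of smallest p, fixed members (the stalk, Rpsa, Rpl5, Rpl11, Rps6, Rps3, Rpl10, Rps4x, Rps19bp1 and paralogs), the 5 of highest and the 5 of lowest mean signal, and up to 3 genes of each other list. Not every value that this rule covers is printed. Rpl36a outside ST against YC, Rpl17, Rps27, Etf1, and the genes named for their number of probe sets, as TOP starts or as members of a counted group were chosen after their values were seen. Cell type levels are means of log2 signal centred on each gene. Every column of per-sample values was used. The procedure was tested on simulated data with known changes. Alternatives left out single arrays and changed the scaling, the filter, the covariates, the choice of probe sets and the test.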

Additional observations from a re-analysis of the deposited data

Results flagged for a closer look

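The highest and lowest array of each group was set against the others for 36 named genes. Of all 148 sets examined, 8 held a value far from the rest by Dixon's criterion at the 95% level. The 148 are more than 36 genes in 4 groups make, so some sets are not of these genes. All 8 are of named genes. Chance gives about 1 in 20. Rpl22 read 1880 on LT replicate 2, where the other LT arrays read 1760 to 1802. Rpl38 read 2022 on LT replicate 4, below the others at 2190 to 2248. Rpl11 read 1742 on ST replicate 1 (others 2117 to 2337) and 2350 on LT replicate 6 (others 2120 to 2195). Rplp0 read 1641 on ST replicate 3 (others 1729 to 1767). Rps19bp1 read 384 on ST replicate 4 (others 414 to 424). Rps4x read 3967 on AC replicate 4, above the others at 3741 to 3782, and Rps10 read 1328 on LT replicate 5 (others 1223 to 1255). No cause was tested.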

How the results depend on the processing

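The 74 members' counts in AC against YC were sensitive to the fit, while their median stayed above 0 throughout, between 0.045 and 0.084 over all 41 alternatives. Counts in this section stand without the share of all probe sets called in the same fit, which also varied. Against 19 higher and 2 lower, the counts were 7 higher with array medians made equal (median 0.045), 4 higher and 0 lower with only the groups compared in the fit, 2 higher and 0 lower with the 4 choroid plexus arrays (AC replicates 3 and 4, LT replicates 2 and 5) left out, 10 higher with the choroid plexus level in the model, and 71 higher and 4 lower over all 262 probe sets. Called lower, in place of 2, was 1 member with the analysis of variance and Fisher's least significant difference (adjusted), with quantile normalization and with no signal filter. Leaving out 1 array at a time gave 9 to 26 higher and 0 to 2 lower, with medians from 0.062 to 0.084. Fits without an ST or LT array keep the AC and YC means and act here only through the variance. The lowest count came without YC replicate 2 (9), then without AC replicate 4 (10), AC replicate 3 (12) and YC replicate 1 (12), and the highest without AC replicate 5 (26). Of the 21 calls, those of Rpl38, Rpl41, Rpl18, Rpl37l1, Rps6, Rps20 and Rps28 held in all 23 of these fits. Of these 7, Rpl38, Rpl18, Rps6, Rps20 and Rps28 lost their call without the 4 choroid plexus arrays (adjusted p from 0.0502 to 0.136) and Rpl37l1 with only the groups compared (0.068), so that Rpl41 alone held under all 40 alternatives that give it 1 value. Equal medians shift the difference of every probe set by one amount, and fewer arrays reduce the degrees of freedom. What moved the counts in any of these fits was not tested.

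With analysis of variance and least significant difference both unadjusted, an alternative chosen after seeing the data, 41 members were higher and 3 lower in AC, 42 and 2 in ST and 40 and 0 in LT, all against YC, and 2 passed in ST, 10 in LT and 6 for both averaged, all against AC, and 8 in LT against ST. In ST against YC, against 15 higher and 0 lower, there were 7 higher with equal array medians, 8 with quantile normalization, 37 higher and 1 lower with array weights, and 40 higher over all 262 probe sets. Leave-one-out counts ran from 8 to 25 higher, with 0 lower in each. In LT against YC, against 3 higher, there were 5 with the analysis of variance, 0 with equal medians, 5 with a signal minimum of 100, 1 when probe sets without a symbol were added, 14 over all probe sets, 10 with array weights, 8 with a variance trend and robust moderation, 0 without the 4 choroid plexus arrays and 0 with the choroid plexus level in the model. Leave-one-out counts ran from 0 to 9. Between the aged groups the count was 0 in all 4 comparisons under all 41 alternatives with adjusted p values, and leave-one-out medians ran from -0.0021 to 0.016 in ST, -0.0094 to 0.0091 in LT, -0.0034 to 0.016 for both averaged, all against AC, and -0.0066 to 0.0056 in LT against ST. Leave-one-out medians against YC ran from 0.063 to 0.085 in ST and 0.06 to 0.081 in LT.

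With the replicate number as a block, 17 members were called higher and 1 lower in AC against YC, 11 and 0 in ST and 2 and 0 in LT against YC. Of 33 same-numbered pairs of arrays, 7 had deviations correlated above 0.1 (range -0.38 to 0.20). Pairs with different numbers were not computed, so these values cannot decide whether the numbers pair the arrays. Over 87 named gene and comparison pairs, 3335 of 3503 alternative values kept their side of the threshold, 160 lost a call, 8 gained one and 0 changed the sign of a call. Most of these pairs had no call in the main fit and so had none to lose. All 160 losses fell on the pairs that had one, so the 3335 do not measure how stable the calls were.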
